A study of Mus musculus with 6 samples.

Results

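The 9 genes described here encode proteins that detect foreign or misplaced nucleic acid in mammalian cells, or that pass on or limit that signal. They were chosen by symbol (Ifih1, Ddx58, Dhx58, Mavs, Tlr3, Eif2ak2, Tmem173, Irf3 and Adar), and all 9 were found among the 20325 genes of the deposited expression table. RNA had been sequenced from C3H10T1/2 cells, a multipotent mesenchymal line from C3H mouse embryos, at passage 10 to 15. The knockdown group (3 samples) was made of parental cells given small interfering RNAs against Ring1a and Ring1b, and the control group (3 samples) of parental cells given a scrambled small interfering RNA, so that every sample had received a small interfering RNA. Ring1a (gene Ring1) and Ring1b (gene Rnf2) are the E3 ligases of Polycomb repressive complex 1, which ubiquitinate histone H2A, and the comparison asked which transcripts differ once both are depleted. The siRNA dose and the time after transfection were not stated in the sources used.

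Double-stranded RNA in the cytosol is bound by the helicases MDA5 (Ifih1) and RIG-I (Ddx58), which act through the mitochondrial adaptor MAVS, while double-stranded RNA in endosomes is bound by Toll-like receptor 3. Cytosolic DNA is sensed by cGAS, whose cyclic dinucleotide product activates STING (Tmem173). These routes meet at kinases that phosphorylate the transcription factor IRF3, which induces interferon genes. Several sensors are themselves interferon-induced, so their mRNA can rise when the pathway is active.

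Expression is given as reads per gene, estimated and then scaled by the authors' median normalization, and the unit is called normalized reads below. Depth, estimated from the value of 1 read in each library, was 23.2, 4.58 and 18.5 M reads in knockdown replicates 1, 2 and 3, and 51.8, 5.45 and 15.1 M reads in control replicates 1, 2 and 3. Knockdown replicate 2 stood apart: its log2 values correlated with those of the other libraries, across genes, at 0.821 to 0.867, while the other pairs lay between 0.944 and 0.993. For this reason calls and values that move without it are given both ways. Rnf2 fell to 129, 76.5 and 152 normalized reads in the knockdowns, against 815, 829 and 799 in the controls (limma adjusted p = 0.00946 for a log2 fold change of −2.82, SE 0.28). It stayed far below the controls but missed the threshold when knockdown replicate 1 (limma adjusted p = 0.0646) or control replicate 1, 2 or 3 (0.0735 to 0.0852) was left out. Ring1 had 162, 268 and 186 in the knockdowns and 336, 386 and 374 in the controls, a difference that missed the threshold (limma adjusted p = 0.104 for a log2 fold change of −0.86, SE 0.23). Among the knockdowns Ring1 was highest in replicate 2, and without that library it passed at −1.06 (SE 0.10, limma adjusted p = 3.86e-06). It also passed with scaling by library totals (limma adjusted p = 0.0441) and in a fit corrected for transcript length (limma adjusted p = 0.0474). The mesenchymal marker genes were high throughout: 10 of 10 exceeded 10 normalized reads in some library, and their sum was 355699 to 633373 in the knockdowns and 528286 to 577899 in the controls. Single markers moved both ways. Pdgfra had 731 to 2488 in the knockdowns and 4262 to 5113 in the controls, and Twist1 had 523 to 702 and 380 to 401. Markers of leukocytes, which also express these sensors, summed to 97.4 to 221 in the knockdowns and 101 to 125 in the controls. Of those 10, Emr1, Cd3e and Tyrobp were listed at 0 in all 6 libraries, and Ptprc reached at most 0.57. Against these, 3 of the 10 exceeded 10 normalized reads in some library: Cd14 (63.2 to 162), Lyz2 (11.1 to 34.0) and Cd68 (7.82 to 17.0). Endothelial markers summed to 106 to 157 in the knockdowns and 87.7 to 108 in the controls, and epithelial markers to 17.1 to 38.3 in the knockdowns and 15.0 to 31.6 in the controls. Tek was the only endothelial marker above 10 normalized reads in any library (102 to 148 in the knockdowns, 87.7 to 106 in the controls), and Cdh1 the only epithelial marker.

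Among the 9 genes, Ifih1 rose 2.53-fold and Tmem173 2.42-fold in the knockdown, and 0 fell. The other members did not pass the test with all 6 libraries (limma on log2(value + 1), Benjamini-Hochberg adjusted p under 0.05 over 12085 genes). In Dhx58, Ddx58 and Eif2ak2 all 3 knockdown values lay above all 3 control values, and in Tlr3 all 3 lay below. Mavs, Irf3 and Adar overlapped between the groups. Over all genes tested, 4.98% passed, 3.20% as higher and 1.78% as lower, and the knockdowns lay wholly above the controls in 20.5% and wholly below in 23.7%. Among the members these counts were 2 of 9 higher, 0 lower, 5 wholly above and 1 wholly below, with a median log2 fold change of 0.43 against 0.01 over all genes tested. The members had been chosen with earlier results of these data known, so their shares are a description. Groups of 3 against 3 allow no exact two-sided permutation p below 0.1, which the 6 members whose groups did not overlap reached. In these bulk samples, a change in the number of expressing cells and a change in RNA per cell cannot be told apart.

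**Figure D1:**
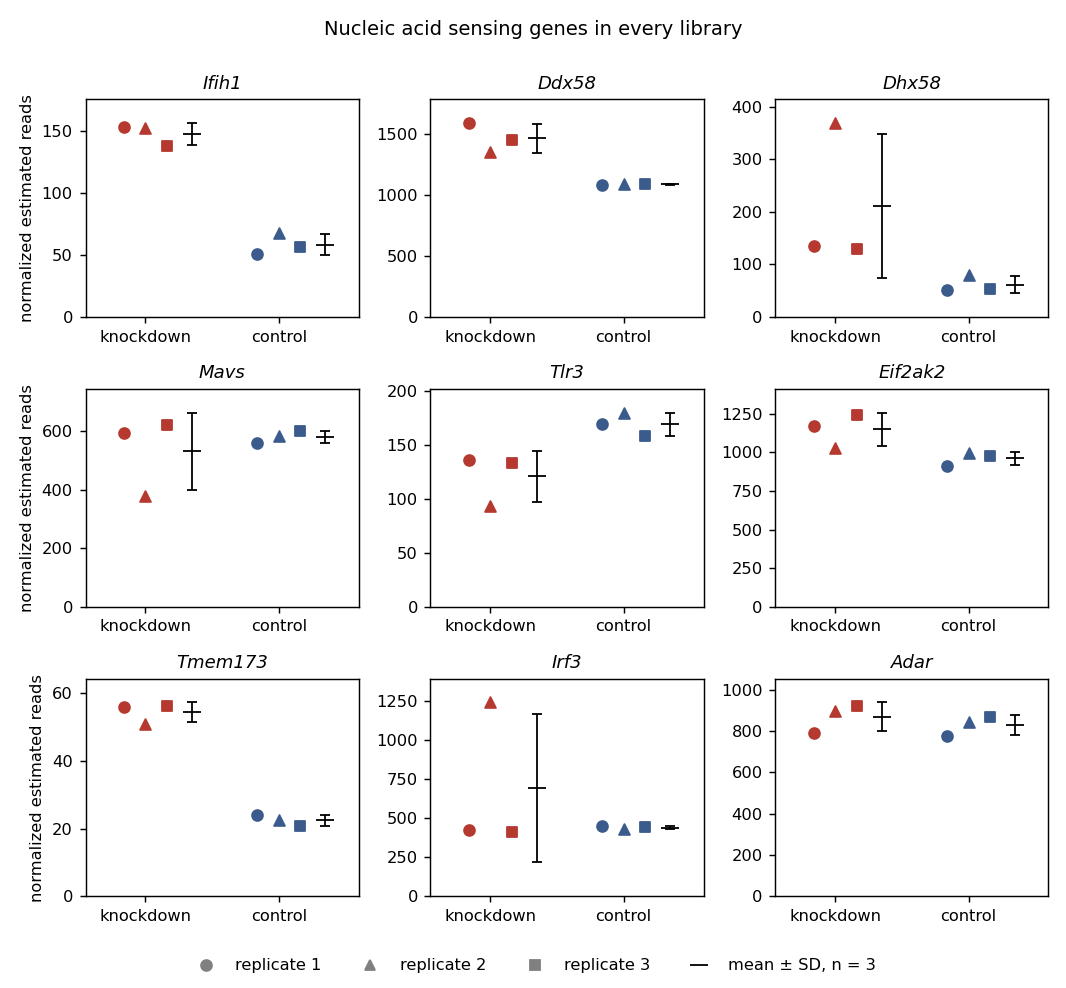
Normalized estimated reads (linear axes from 0) of the 9 genes in each of the 3 knockdown and 3 control libraries, with the mean ± SD beside each group (n = 3). The knockdown values of Ifih1 and Tmem173 cluster well above the controls, Tlr3 lies below them, and knockdown replicate 2 (triangle) stands alone in Dhx58, Irf3 and Mavs.

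Ifih1 encodes MDA5, the cytosolic helicase that binds long double-stranded RNA. It stood at 153, 153 and 138 normalized reads in knockdown replicates 1, 2 and 3, and at 50.8, 67.7 and 56.9 in control replicates 1, 2 and 3. The lowest knockdown was more than double the highest control, and the 3 knockdowns lay close together. The means were 148 ± 8.83 in the knockdown and 58.4 ± 8.55 in the control (SD, n = 3), a 2.53-fold rise (log2 fold change 1.33, SE 0.18, limma adjusted p = 0.0194). Without knockdown replicate 2 the change was 1.31 (SE 0.16, limma adjusted p = 4.08e-05). It missed the threshold when knockdown replicate 1 or 3, or control replicate 1, 2 or 3, was left out (limma adjusted p = 0.105, 0.0770, 0.124, 0.0847 and 0.142), and with scaling by library totals (limma adjusted p = 0.0682), although the log2 fold change stayed between 1.19 and 1.44. In the 5 fits that left out a library few genes passed anywhere: 7 higher and 21 lower without knockdown replicate 1, 37 and 57 without knockdown replicate 3, and 0 without any of the controls (1475 to 1529 genes at an unadjusted p under 0.05).

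Ddx58 encodes RIG-I, which recognises short double-stranded RNA with a 5′ triphosphate. It was far more abundant, at 1596, 1356 and 1455 normalized reads in the knockdowns against 1083, 1093 and 1091 in the controls. Every knockdown exceeded every control, and the controls lay close together (SD 5.19, n = 3). The difference was 1.35-fold (log2 fold change 0.43, SE 0.14) and did not pass (limma adjusted p = 0.155). The fit without knockdown replicate 2 called it, with a log2 fold change of 0.48 (SE 0.06, limma adjusted p = 2.59e-05), and called 49.9% of all genes, 23.8% higher and 26.1% lower.

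Dhx58 encodes LGP2, the third helicase of this family, which lacks the signalling domains of the others and modulates them. It stood at 135, 369.9 and 129 normalized reads in the knockdowns, against 52.3, 80.2 and 52.4 in the controls. All knockdowns lay above all controls, with replicate 2 at 2.80 times the mean level of the other knockdowns. The mean was 211 ± 137 in the knockdown and 61.6 ± 16.1 in the control (SD, n = 3), and the log2 fold change of 1.61 (SE 0.47) did not pass (limma adjusted p = 0.128). Without knockdown replicate 2 the knockdowns were 2.14-fold above the controls (limma adjusted p = 0.000552, log2 fold change 1.11 with SE 0.19).

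The helicase genes differed between the groups by unequal amounts within the same libraries, a comparison that does not depend on library scaling. The ratio of Ifih1 to Ddx58 was 0.0960, 0.113 and 0.0947 in the knockdowns and 0.0469, 0.0619 and 0.0522 in the controls. The ratio of Dhx58 to Ddx58 was 0.0847, 0.273 and 0.0884 in the knockdowns and 0.0483, 0.0734 and 0.0480 in the controls. Both ratios were higher in all 3 knockdowns than in any control, as was that of Tmem173 to Ddx58 (0.0371 ± 0.0018 in the knockdown and 0.0206 ± 0.0016 in the control; SD, n = 3). Each gave the smallest exact two-sided permutation p this design allows (p = 0.1 for each of 3 ratios, and 0.1 after Benjamini-Hochberg adjustment).

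RefSeq promoter windows (build GRCm38.p6, 250 bases before to 50 after the gene start) were found for 7 of the 9 genes (not for Dhx58 and Tmem173) and searched on both strands for GAAA, any 2 bases and GAAA again, the core of the interferon-stimulated response element. The windows of Ifih1, Ddx58 and Eif2ak2 held a match, while those of Mavs, Tlr3, Irf3 and Adar (3 windows) held none. Over all genes with a window, 3.98% held a match. Only this exact pattern was searched, so a window without a match can still hold a variant of the element. The matches began 32, 2 and 18 bases after the gene start in Ifih1, Ddx58 and Eif2ak2. The second motif searched, TTCNNNGAA (the gamma-activated sequence of interferon-responsive genes), was found in Eif2ak2 and in a window of Adar, and in 9.55% of genes with a window; in Eif2ak2 the motifs did not overlap. The 3 windows that hold the response element core are shown. All 3 genes lay wholly above the controls in the knockdown, but Ddx58 and Eif2ak2 did not pass with all 6 libraries. Dhx58 and Tmem173 also lay wholly above the controls, and no window was found for them. A link between the motif and the change was not tested. Capitals mark the core, which lies on the reverse strand in Ddx58, and each window is given 5′ to 3′ on the strand of its gene.
Ifih1 promoter, chr2:62646206-62646505, minus strand: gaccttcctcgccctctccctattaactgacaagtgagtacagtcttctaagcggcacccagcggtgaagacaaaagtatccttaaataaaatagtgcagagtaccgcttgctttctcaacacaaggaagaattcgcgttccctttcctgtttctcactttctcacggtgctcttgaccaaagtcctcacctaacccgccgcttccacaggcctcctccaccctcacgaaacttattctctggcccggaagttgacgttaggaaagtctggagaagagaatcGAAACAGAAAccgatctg
Ddx58 promoter, chr4:40239776-40240075, minus strand: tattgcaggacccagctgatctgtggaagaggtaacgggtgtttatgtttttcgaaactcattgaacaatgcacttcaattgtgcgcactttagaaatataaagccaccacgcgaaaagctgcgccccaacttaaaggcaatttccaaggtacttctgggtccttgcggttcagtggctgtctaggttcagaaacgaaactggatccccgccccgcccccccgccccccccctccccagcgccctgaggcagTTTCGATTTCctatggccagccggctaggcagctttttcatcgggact
Eif2ak2 promoter, chr17:78882523-78882822, minus strand: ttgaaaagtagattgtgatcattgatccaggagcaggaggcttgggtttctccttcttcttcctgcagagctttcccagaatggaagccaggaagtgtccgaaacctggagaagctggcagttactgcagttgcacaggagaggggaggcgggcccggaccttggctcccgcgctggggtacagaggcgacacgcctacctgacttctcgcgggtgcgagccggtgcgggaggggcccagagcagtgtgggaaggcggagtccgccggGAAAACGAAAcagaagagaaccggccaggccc
A match is a description of these letters and does not show that a factor binds there.

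Tlr3, which encodes the endosomal receptor for double-stranded RNA, had its values on the other side of the controls from the cytosolic helicases. It stood at 136, 93.5 and 134 normalized reads in the knockdowns, against 169.6, 180.4 and 159 in the controls. All 3 knockdowns lay below all 3 controls, and replicate 2 was the lowest. The means of 121 ± 23.9 in the knockdown and 169.7 ± 10.7 in the control (SD, n = 3) differed 1.40-fold, with a log2 fold change of −0.50 (SE 0.21) that did not pass (limma adjusted p = 0.247). Without knockdown replicate 2 the difference was smaller, at −0.33, and passed (SE 0.11, limma adjusted p = 0.0304).

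Tmem173 encodes STING, the endoplasmic reticulum protein that relays the signal of cytosolic DNA. Its normalized reads were 56.0, 51.0 and 56.1 in the knockdowns and 24.1, 22.6 and 20.8 in the controls. The groups were well separated and tight, with means of 54.4 ± 2.91 in the knockdown and 22.5 ± 1.64 in the control (SD, n = 3). This 2.42-fold rise passed the test (log2 fold change 1.24, SE 0.19, limma adjusted p = 0.0271), and without knockdown replicate 2 it was 1.28 (SE 0.22, limma adjusted p = 0.000416). The level rested on few reads in the shallow libraries: 12 estimated reads in knockdown replicate 2 (95% exact Poisson interval 26.4 to 89.1 normalized reads) and 9 in control replicate 2 (10.3 to 42.8), intervals that cover counting error only. The call was lost when knockdown replicate 1 or 3, or any of control replicates 1 to 3, was left out (limma adjusted p = 0.132, 0.112, 0.138, 0.135 and 0.172), and with scaling by library totals (limma adjusted p = 0.122).

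Mavs encodes the mitochondrial adaptor of the RNA helicases. Its values were 595, 378 and 619 normalized reads in the knockdowns and 559, 584 and 599 in the controls. Knockdown replicate 2 lay below every control while knockdown replicates 1 and 3 lay within or just above them. The log2 fold change was −0.16 (SE 0.23, 95% interval −0.72 to 0.40, limma adjusted p = 0.655), and 0.06 (SE 0.07, limma adjusted p = 0.448) without knockdown replicate 2.

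Irf3, the transcription factor at which these routes meet, stood at 428, 1245 and 415 normalized reads in the knockdowns, against 450.0, 431 and 443 in the controls. Replicate 2 alone was high, and the other knockdowns lay just below all controls. The log2 fold change of 0.45 (SE 0.45, limma adjusted p = 0.545) became −0.07 (SE 0.07, limma adjusted p = 0.465) without replicate 2. In GENCODE M21 exons of Bcl2l12 overlap those of Irf3 on the opposite strand, and whether counting used strand is not known from the labels. Bcl2l12 had 142, 85.0 and 142 normalized reads in the knockdowns and 157, 123 and 124 in the controls, and was lowest in knockdown replicate 2. The same limit holds for other members with an overlapping gene on the opposite strand. These are Dhx58 (Dhx58os), Tlr3 (Gm45542), Eif2ak2 (Gm26637 and n-R5s29) and Adar (Chrnb2). Chrnb2 reached at most 7.82 normalized reads, in knockdown replicate 3, and the others had no values.

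Eif2ak2 encodes PKR, a kinase that double-stranded RNA activates to shut down translation through eIF2alpha. It stood at 1174, 1029 and 1244 normalized reads in the knockdowns, against 911, 994 and 978 in the controls. The groups did not overlap, but the gap between the lowest knockdown and the highest control was small. The 1.20-fold difference missed the threshold (log2 fold change 0.25, SE 0.14, limma adjusted p = 0.369) and passed without knockdown replicate 2 (0.33, SE 0.06, limma adjusted p = 0.000743).

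Adar encodes the deaminase that converts adenosine to inosine in double-stranded RNA and so keeps the cell's own transcripts from activating MDA5. Its values were 789, 897 and 921 normalized reads in the knockdowns and 775, 842 and 868 in the controls. The ranges overlapped, and the log2 fold change was 0.07 (SE 0.14, 95% interval −0.28 to 0.42, limma adjusted p = 0.772). Without knockdown replicate 2 it was 0.04 (SE 0.08, limma adjusted p = 0.678).

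Leaving out knockdown replicate 2 thus gave 5 of 9 members higher (Ifih1, Tmem173, Dhx58, Ddx58 and Eif2ak2) and 1 lower (Tlr3), beside 23.8% and 26.1% of all genes in that fit. Irf3 and Mavs, which passed in neither fit, had opposite signs with and without that replicate, and the other 7 members kept theirs.

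**Figure D2:**
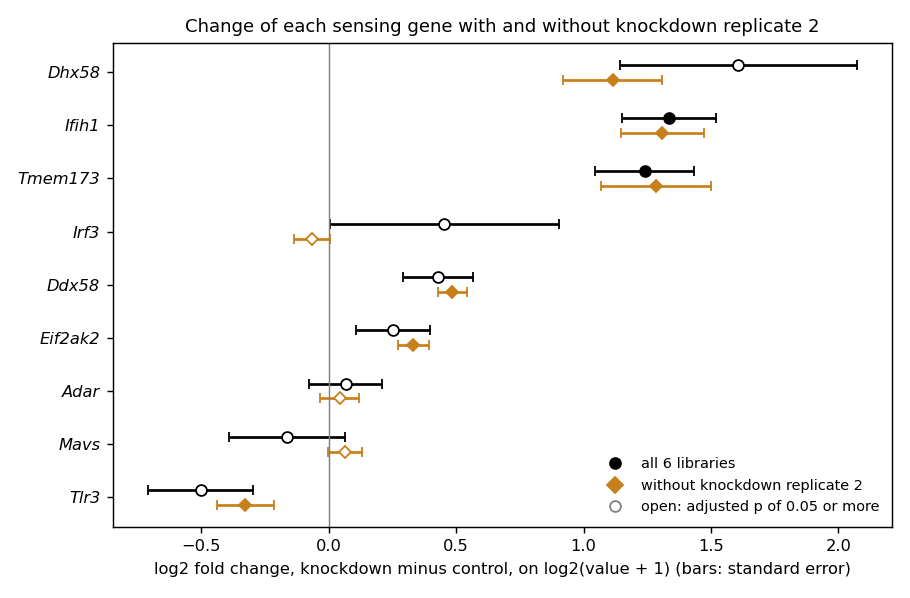
Log2 fold change (knockdown minus control, on log2(value + 1)) of the 9 genes with all 6 libraries (circles, n = 3 against 3) and without knockdown replicate 2 (diamonds, n = 2 against 3), with standard errors; filled symbols passed an adjusted p of 0.05. Ifih1 and Tmem173 passed in both fits at nearly the same size, while the error of Dhx58 and Irf3 shrank without replicate 2.

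Where knockdown replicate 2 differed from the other knockdowns, transcript length moved with the difference. Over all genes tested, the median log2 difference between replicate 2 and the mean of knockdown replicates 1 and 3 was 0.81 in the bin of shortest transcripts (median 850.0 nt) and −0.84 in the bin of longest (median 4634.5 nt). Irf3, with a median transcript of 869 nt in GENCODE M21, was 1.56 higher in replicate 2. Mavs and Tlr3, of 2962 and 2417 nt, differed by −0.68 and −0.52, in a bin whose median was −0.30. Other members had the opposite sign to their bin. Dhx58, at 2412 nt in the same bin as Mavs and Tlr3, was 1.48 higher. Ifih1 (4543 nt) and Adar (3753 nt) each differed by 0.07 in the bin of longest transcripts, and Tmem173 (1371.5 nt) by −0.13 in a bin whose median was 0.22. Ddx58 (3000.5 nt) and Eif2ak2 (4313 nt), at −0.17 and −0.23, had the sign of theirs. These bins, and the length correction below, used the median transcript of each gene. The longest transcript lay in the range of another bin for Irf3 (2031 nt), Tmem173 (2299 nt), Ddx58 (3874 nt) and Tlr3 (4407 nt). The bin that covers 2299 nt had a median of −0.30, the sign of Tmem173. No bins or correction by the longest transcript were made. The part of length in the members' differences was not tested, but in a fit corrected for length (an alternative chosen once the data had been seen) Ifih1 passed at 1.56 (SE 0.26, limma adjusted p = 0.0219), Ddx58 passed at 0.50 (SE 0.11, limma adjusted p = 0.0479), and Tmem173 missed the threshold at 1.01 (SE 0.27, limma adjusted p = 0.0800).

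**Figure D3:**
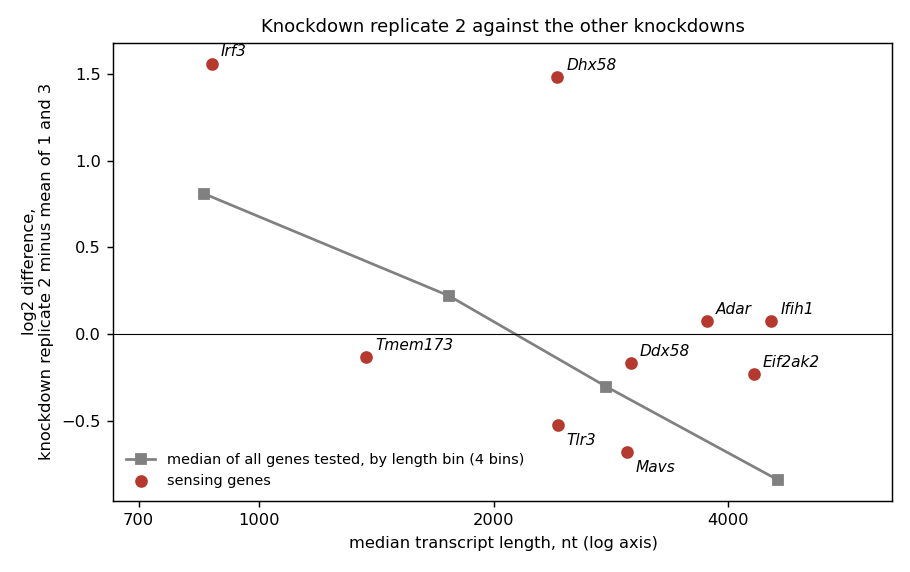
Log2 difference between knockdown replicate 2 and the mean of knockdown replicates 1 and 3, plotted against median transcript length in nt (log axis), for the 9 genes (circles) and as the median of all genes tested in 4 length bins (squares). Irf3 lies at the short end at 1.56 and Dhx58 at 1.48, while Ifih1 and Adar lie near 0.

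Divided by the median transcript length, control levels spanned a wide range. Irf3 (508 ± 11.1 normalized reads per kb) and Ddx58 (363 ± 1.73) were highest, followed by Eif2ak2 (223 ± 10.2) and Adar (221 ± 12.8), whose ranges overlapped, and by Mavs (196 ± 6.84). Tlr3 (70.2 ± 4.43), Dhx58 (25.6 ± 6.66), Tmem173 (16.4 ± 1.20) and Ifih1 (12.9 ± 1.88; SD, n = 3) formed the low end, with no overlap between neighbours. With the longest transcript of each gene instead, Ddx58 (281 per kb) came above Eif2ak2 and Irf3 (223 and 217), and Tmem173 (9.77) below Ifih1 (10.7), but Dhx58, Tmem173 and Ifih1 were again the lowest. These 3 least abundant members had the 3 largest log2 fold changes in the knockdown, where the order at the low end was Dhx58, Tlr3, Tmem173 and Ifih1; Dhx58, Tmem173 and Ifih1 reached 87.6 ± 57.0, 39.6 ± 2.12 and 32.6 ± 1.94 per kb of median length, against 50.1 ± 9.90 for Tlr3, whose range overlapped those of Dhx58 and Tmem173 (SD, n = 3). The place of Dhx58 above Tlr3 rested on knockdown replicate 2: Dhx58 had 56.0, 153 and 53.3 per kb in the knockdowns and Tlr3 56.4, 38.7 and 55.3, and without replicate 2 Dhx58 averaged 54.7 and Tlr3 55.8.

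The genes whose log2 values most resembled those of the members that rose were found by Pearson correlation over the 6 samples, a measure dominated by the difference between the groups and given as a description. For Ifih1 these were Slc9a3r1, Rnf157 and Grb14 (r = 0.9997, 0.998 and 0.998). Slc9a3r1, a scaffold protein gene, had 475 ± 34.2 normalized reads in the knockdown and 139.6 ± 24.7 in the control (SD, n = 3). For Tmem173 they were Aurkb, Mms22l and Uhrf1 (r = 0.998, 0.997 and 0.997), which serve mitosis, replication fork repair and maintenance of DNA methylation. Aurkb had 574 ± 53.5 normalized reads in the knockdown and 221 ± 20.4 in the control (SD, n = 3). Of the 10742 and 10743 genes searched, 15 correlated with Ifih1 and 50 with Tmem173 at 0.99 or more.

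The genes around the sensors were examined in 8 lists of 119 genes, of which 118 were in the table and 101 were tested. Of these, 5 rose and 1 fell (4.95% and 0.99%), close to the 3.20% and 1.78% over all genes, and their median log2 fold change was 0.32. All 3 knockdowns lay above all controls in 42 (41.6%, against 20.5% of all genes) and below in 11 (10.9%, against 23.7%). The lists were chosen with earlier results of these data known, so these shares, here and below, are a description. Among the 42 was Zbp1, which met the mean filter only through the knockdowns (mean 25.4, against 1.59 in the controls). Without knockdown replicate 2, 50 of 99 were higher (50.5%, against 23.8% of all genes in that fit) and 14 lower (14.1%, against 26.1%). The 6 calls were lost when knockdown replicate 1 (limma adjusted p = 0.0578 to 0.142) or control replicate 1, 2 or 3 (0.0617 to 0.205) was left out, and all but that of Enpp1 when knockdown replicate 3 was left out (0.0669 to 0.117). Scaling by library totals ended the calls of Parp14 and Herc6 at log2 fold changes of 0.99 and 0.90 (limma adjusted p = 0.0592 and 0.215). The length correction ended those of Oas2 and Parp14, whose log2 fold changes were larger there, at 1.89 and 1.51 (limma adjusted p = 0.0517 and 0.0695).

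Of 19 tested partners and adaptors of the RNA sensors, 0 rose and 0 fell, and the median was −0.03. In the fit without knockdown replicate 2, 7 of 18 were higher and 4 lower, with a median of 0.10 (all genes: 23.8% higher, 26.1% lower). The most abundant were the RNA helicase genes Ddx3x and Dhx9. Ddx3x averaged 4238 ± 2091 in the knockdown and 6415 ± 223 in the control, and Dhx9 averaged 2445 ± 1242 in the knockdown and 3296 ± 131 in the control (SD, n = 3). Neither passed (limma adjusted p = 0.385 and 0.471), and both were lowest in knockdown replicate 2. Without it Ddx3x passed at a log2 fold change of −0.24 (limma adjusted p = 0.00504), and Dhx9 stood at −0.06 (limma adjusted p = 0.379). Irf7, the interferon-induced relative of Irf3 (named after its values were seen), had 96.1, 655 and 104 normalized reads in the knockdowns and 33.7, 62.6 and 69.6 in the controls (log2 fold change 1.81, limma adjusted p = 0.280; 0.91, limma adjusted p = 0.0224 without knockdown replicate 2). Trim25, a ubiquitin ligase gene of the RIG-I route (also named after its values were seen), was listed at 0 in all 6 libraries. The annotation used is not known, so this does not show that the gene was not expressed.

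In the list of RNA editing and decay genes, 1 of 12 rose and 0 fell, with a median of 0.64. Without knockdown replicate 2, 6 were higher and 1 lower (all genes: 23.8% and 26.1%), with a median of 0.30. The gene that rose with all libraries was Oas2, a synthetase that double-stranded RNA activates to make the messenger of RNase L, at 62.1 ± 23.5 normalized reads in the knockdown and 17.3 ± 2.75 in the control (SD, n = 3; log2 change 1.74 with SE 0.32, limma adjusted p = 0.0412). Oas genes include close copies, such as Oas1a and Oas1b, between which estimated reads can be split. Whether this touches the value of Oas2 was not examined.

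On the DNA side, 1 of 13 genes rose and 1 fell, with a median of 0.42. Without knockdown replicate 2, 6 were higher and 3 lower (all genes: 23.8% and 26.1%), with a median of 0.08. Enpp1, the ectoenzyme that hydrolyses the cyclic dinucleotide ligand of STING, fell to 142, 183 and 157 normalized reads in the knockdowns, against 618, 571 and 582 in the controls. The groups were far apart (log2 fold change −1.88, SE 0.16, limma adjusted p = 0.00758), and without knockdown replicate 2 the change was −1.97. Ifi204, a member of a family of DNA-binding interferon-induced genes with close copies, rose to 611 ± 145 in the knockdown, against 234 ± 17.6 in the control (SD, n = 3; log2 change 1.36 with SE 0.21, limma adjusted p = 0.0265). The gene of cGAS itself, listed under its older symbol E330016A19Rik and singled out after its values were seen, had 149.8, 103 and 153 normalized reads in the knockdowns and 87.3, 80.2 and 79.5 in the controls. It did not overlap between groups but missed the threshold (log2 fold change 0.69, SE 0.21, limma adjusted p = 0.146), and passed without knockdown replicate 2 (0.87, limma adjusted p = 0.000179).

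Of the 10 interferon ligand genes, 0 reached the mean of 10 normalized reads needed for the test. The highest value was 4.25 in the knockdowns and 5.01 in the controls, and 6 of the genes were listed at 0 in every library. Ifnb1, the interferon beta gene (named after its values were seen), was listed at 0 in every library but knockdown replicate 3, where it had 0.71, the value of 1 read. A floor of 3 reads is 1.70, 12.8 and 2.13 normalized reads in knockdown replicates 1, 2 and 3 and 0.777, 7.52 and 2.71 in control replicates 1, 2 and 3, so lower ligand levels were not detectable at this depth.

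Of 13 genes for interferon reception, 0 rose and 0 fell (median 0.13). Without knockdown replicate 2, 7 were higher and 2 lower (all genes: 23.8% and 26.1%), with a median of 0.23. The receptor gene Ifnar1 averaged 2197 ± 208 in the knockdown and 2157 ± 34.0 in the control, and the kinase gene Jak1 averaged 2242 ± 882 in the knockdown and 2093 ± 15.8 in the control (SD, n = 3; limma adjusted p = 0.923 and 0.993). Jak1 was lowest in knockdown replicate 2, and without it the log2 fold change of Jak1 was 0.39 (limma adjusted p = 3.84e-05), against 0.00 with all libraries.

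Of 20 interferon-induced effector genes tested, 3 rose and 0 fell, and the median was 1.05. Ifi44 had 121, 387 and 146 normalized reads in the knockdowns (mean 218 ± 147), against 28.3 ± 11.1 in the control, a 7.70-fold rise that was 4.72-fold without knockdown replicate 2. The ADP-ribosyltransferase gene Parp14 averaged 268 ± 37.2 in the knockdown and 121.5 ± 13.8 in the control. Herc6, a ligase that attaches ISG15, averaged 137 ± 17.7 in the knockdown and 65.6 ± 3.94 in the control (SD, n = 3). Their limma adjusted p were 0.0495, 0.0294 and 0.0332, and that of Ifi44 was 0.0515 with a pseudocount of 0.1, 0.0530 with no filter on low values and 0.0568 with a mean filter of 50. In 14 of the 20 (70.0%) all knockdowns lay above all controls, against 20.5% of all genes. The median log2 difference of this list between knockdown replicate 2 and knockdown replicates 1 and 3 was 1.31. Without knockdown replicate 2, 14 of 19 were higher and 1 was lower (all genes: 23.8% and 26.1%), with a median of 0.64. The part of that replicate in the level of this list was not tested beyond these values.

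Neither the other eIF2alpha kinases with their stress response nor the NF-kB genes had a member that passed with all libraries (0 of 12 higher and 0 of 12 lower in each list; medians 0.48 and 0.00). When knockdown replicate 2 was left out, 6 of 12 were higher and 1 lower among the stress response genes (median 0.33), and 4 of 12 higher and 2 lower among the NF-kB genes (median 0.08). That fit called 23.8% of all genes higher and 26.1% lower. In the first list Atf4 averaged 3325 ± 406 in the knockdown and 2340 ± 272 in the control, and Ddit3 averaged 2943 ± 3011 in the knockdown and 783 ± 109.7 in the control (SD, n = 3; limma adjusted p = 0.172 and 0.306). Both were highest in knockdown replicate 2, and without it both passed, Atf4 at 1.33-fold (limma adjusted p = 0.00543) and Ddit3 at 1.54-fold, against 3.76-fold with it (limma adjusted p = 0.00131 without it). In the second Rela averaged 1506 ± 529 in the knockdown and 1017 ± 17.7 in the control, and Ikbkg averaged 1218 ± 77.2 in the knockdown and 1368 ± 59.0 in the control (SD, n = 3; limma adjusted p = 0.323 and 0.483). Rela passed without knockdown replicate 2 at 1.18-fold, against 1.48-fold with it (limma adjusted p = 0.00286 without it), and Ikbkg did not pass (limma adjusted p = 0.110).

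**Figure D4:**
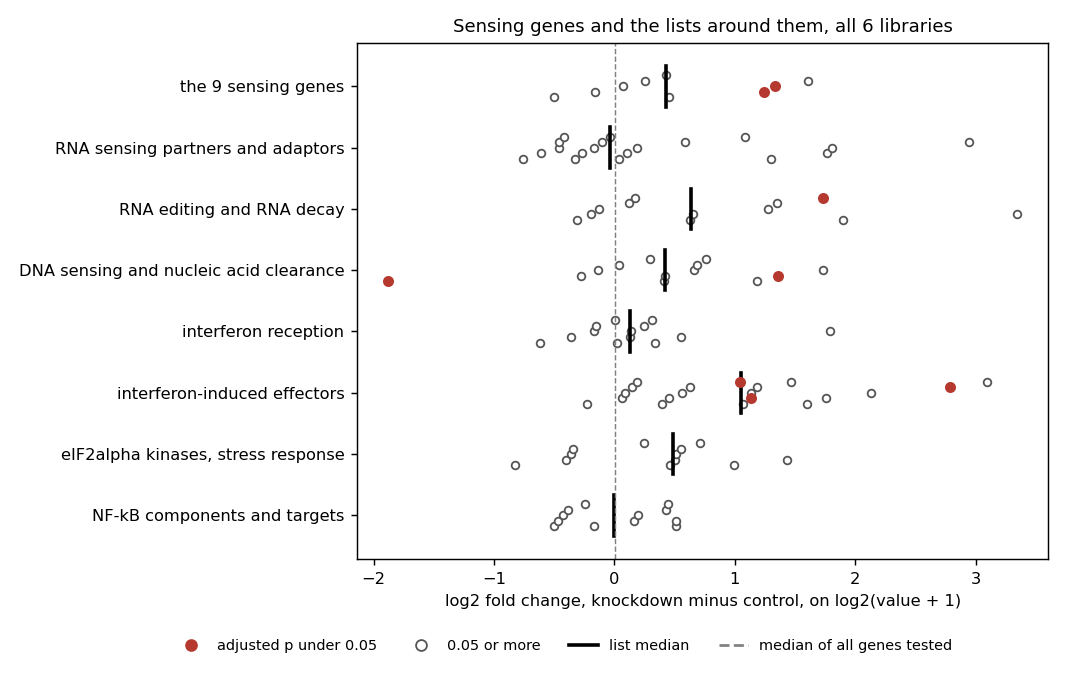
Log2 fold changes (knockdown minus control, all 6 libraries, on log2(value + 1)) of the 9 genes and of the tested genes of 7 lists, 1 point per gene; filled points passed an adjusted p of 0.05, bars mark list medians and the dashed line the median of all genes tested. The interferon-induced effectors have the rightmost list median, 1.05, and Enpp1 is the single filled point to the left of 0.

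None of the 9 genes is in the authors' deposited table of 323 differential genes, in which the smallest fold in either direction is 4.01. The largest fold among the 9 with all 6 libraries, from the values used here, was 3.43, for Dhx58; without knockdown replicate 2 Dhx58 was at 2.14, below Tmem173 at 2.50 and Ifih1 at 2.49. Of the list genes, the authors' deposited table holds Oas1a with a fold of 20.2 and Ifi44 with a fold of 7.85. Both were highest in knockdown replicate 2: Oas1a, named after its values were seen, had 49.2, 587 and 65.9 normalized reads in the knockdowns, and from the values used here its fold was 19.7 with that library and 4.86 without it. Estimated reads of Oas1a can be split with its close copies, so these folds are uncertain.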

How the data were processed

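RNA of 6 samples of C3H10T1/2 cells was sequenced. Trizol isolation and Illumina TruSeq libraries are recorded per the labels' protocols, and RSEM 1.2.12, Bowtie 1.0.0 and the mm9 build per the submitters' processing notes. Which annotation and strand setting were used was not given in the sources used here. The authors deposited a normalized signal per library, which the deposited table is named for as median-normalized, and whose low values step in multiples of a constant in each library. The fold in the authors' deposited list of differential genes was used for its smallest value and for the 2 list genes it holds, and enters no test.

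The most frequent lowest value of each library was taken as 1 read. Below or at 20 reads, 88.3 to 90.5% of the values lay within 0.1 read of a whole number, too few to treat the values as whole reads, and count models were not applied. Genes with a mean of at least 10 were tested on log2(value + 1), which understates the change of low genes, with limma 3.58.1 in R 4.3.3 (two-sided contrast of knockdown minus control, robust empirical Bayes with a mean trend, Benjamini-Hochberg over all genes tested, threshold 0.05), after a check on simulated data. The simulated libraries had a common spread and none stood apart as knockdown replicate 2 does, so that check does not cover such a library. The labels do not say whether replicates were separate cultures, and the p-values reflect only how far these samples spread, which may be technical. Libraries of the same group differed beyond sampling noise (chi-square over its degrees of freedom at least 1.51), and each counted as 1 sample.

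The members and lists were chosen with earlier results of these data known. Genes named are the 9 members, Ring1 and Rnf2; per list, up to 4 members that passed with the smallest adjusted p, or the 2 most abundant where none passed; and, per member that passed, the 3 genes most alike by Pearson correlation among those with a mean of at least 50. Irf7, Trim25, Ifnb1, Oas1a and the gene of cGAS were chosen after their values were seen. The listed symbols Mb21d1 and Ifi27 are not in the table; the first was matched through RefSeq synonyms, and the second, with several candidates, was left out. Transcript lengths are from GENCODE M21 protein-coding transcripts, on a newer build than the authors', and were available for 90.1% of genes tested. Promoter sequences are RefSeq's, GRCm38.p6, credited to that build alone.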

Additional observations from a re-analysis of the deposited data

How the results depend on the processing

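With all 6 libraries 387 genes were higher and 215 lower, 2 and 0 of the 9 sensing genes, and 5 and 1 of the list genes. Scaling by library totals put the median of all genes at −0.14 (log2), against 0.01, and gave 184 higher and 118 lower genes, 0 sensing genes and 3 list genes higher; Ifih1 and Tmem173 then had adjusted p of 0.0682 and 0.122. Library weights, whose estimation stopped before convergence, gave 4214 and 4596 genes, 5 and 1 sensing genes, and 59 and 22 list genes. A mean filter of 50 left 1 sensing gene (Ifih1, since Tmem173 fell below the filter) and 3 list genes higher. The length correction, added after seeing the data, gave 339 lower genes. Fits that left out a library gave 0 to 2855 higher and 0 to 3136 lower genes, 0 to 5 and 0 to 1 sensing genes, and 0 to 50 and 0 to 14 list genes; the highest counts are those without knockdown replicate 2.

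Over all genes tested, deviations from the group mean correlated at 0.17, −0.05 and −0.05 between same-numbered samples of replicates 1, 2 and 3. Differently numbered samples lay between −0.17 and 0.11. The labels do not say whether the numbers pair the samples, and these correlations cannot settle it. Dhx58 was highest in replicate 2 of both groups, and a block on the replicate number lowered its SE from 0.47 to 0.29. The same block raised the SE of Ifih1 from 0.18 to 0.22. With the replicate number as a block 0 genes were higher and 0 lower, 0 sensing genes and 0 list genes among them (1866 genes at an unadjusted p under 0.05; limma adjusted p = 0.125 for Ifih1 and 0.152 for Tmem173).

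Over the 16 alternatives the log2 fold change of Ifih1 lay between 1.19 and 1.56, Ddx58 between 0.29 and 0.55, Dhx58 between 1.11 and 1.87, Eif2ak2 between 0.11 and 0.46 and Tlr3 between −0.64 and −0.29; over 15, that of Tmem173 lay between 1.01 and 1.29. Signs turned only in genes that did not pass with all libraries: under total scaling Adar (−0.075), Ifnar1 (−0.12) and Jak1 (−0.14); under library weights Mavs (0.032), Irf3 (−0.047), Adar (−0.072) and Ifnar1 (−0.081). Fits that left out a library ranged from −0.29 to 0.064 for Mavs, −0.066 to 0.73 for Irf3, −0.052 to 0.077 for Ifnar1 and −0.20 to 0.39 for Jak1. The sign turned there without knockdown replicate 2 (Mavs, Irf3, Ifnar1), and for Jak1 without knockdown replicate 1 (−0.18) or 3 or control replicate 3 (−0.0014). The cause was not tested.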
